A study of Arabidopsis thaliana with 12 samples.

Results

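The comparison was between roots of Arabidopsis thaliana kept for 6 h in liquid medium and roots kept there for 1.5 h, in both cases without arsenate (mock). All seedlings were of the Col-0 accession, the common laboratory wild type, and had grown for 7 days on plates with 1 mM phosphate and for 2 days on plates without phosphate before they were moved into liquid medium that also lacked phosphate. Each group had 2 libraries, each from the roots of 60 seedlings, and the series holds 12 libraries in all: mock and 30 µM arsenate, As(V), at 1.5, 6 and 24 h. Genes entered when they had at least 1 FPKM (reads of a gene corrected for its length and for library size) in 2 or more of the 4 mock libraries of 6 h and 1.5 h. That held for 19172 of the 33557 genes in the table, or 57.1%. The second-highest value of the 4 libraries set entry, and CWINV5 at 1.00049 FPKM and ATCG00660 at 1.00068 FPKM were the members just inside it, with AT1G20530 at 0.999991 FPKM and SHI at 0.999757 FPKM just outside. Hours in liquid, hours without phosphate and hour of the day can all differ between 6 h and 1.5 h, and they cannot be told apart here. The labels give no hour of harvest, and they do not say whether the 2 libraries of a group came from separate cultures. The p-values therefore rest only on the spread between libraries within groups, pooled over all 12 libraries of the series.

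In plants a circadian clock of transcription factors that repress one another in turn sets the daily course of many transcripts. CCA1 and LHY peak around dawn, the pseudo-response regulators PRR9, PRR7 and PRR5 follow through the day, and TOC1, GI, LUX, ELF3 and ELF4 peak late in the day or in the evening. Roots without phosphate induce a regulon driven by PHR1, with transporters, phosphatases, noncoding RNAs such as IPS1 and enzymes that replace phospholipids with galactolipids and sulfolipids. A move into liquid is also a mechanical, osmotic and oxygen stimulus for a root, with known marker genes for each.

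The libraries of 6 h had an estimated 15.0143 and 16.3676 M reads in genes, against 13.7213 and 13.9301 M at 1.5 h. Each library had between 18880 and 18952 genes at 1 FPKM or more. Pearson correlations of log2(FPKM + 1) between the libraries of a group were 0.994 at 6 h and 0.989 at 1.5 h. Root markers were present: CASP1, a membrane protein of the endodermal Casparian strip, was at 151 and 166 FPKM at 6 h, against 201 and 226 FPKM at 1.5 h. Of 10 photosynthesis genes used as shoot markers, LHCB1.1 and LHCB2.1 were under 1 FPKM in all 4 libraries, and 8 could be tested. The 10 summed to 125 and 118 FPKM at 6 h, against 228 and 130 FPKM at 1.5 h, with the highest sum in replicate 1 of 1.5 h. All 8 had a change below 0 (median -0.44). None was called, though 1 was called lower in each fit of mock libraries alone, and their part in the results was not tested.

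Of the 18800 members that could be tested, 4151 (22.1%) differed between 6 h and 1.5 h at an adjusted p under 0.05 in limma with Benjamini-Hochberg adjustment. At 6 h 1865 (9.92%) were higher and 2286 (12.2%) were lower. In every one of these the libraries of 6 h did not overlap those of 1.5 h, so separate groups add nothing to a call. Most changes were small: the median log2 change was 0.44 among the genes called higher and -0.51 among those called lower, on the log2(FPKM + 1) scale used throughout. A change of 2-fold or more was found in 174 genes called higher (0.926%) and in 350 called lower (1.86%), and one of 4-fold or more in 16 and 44. The median over all members tested was -0.0053. The split moved with scaling: with precision weights on estimated reads and library totals (voom) 2467 genes were called higher and 1794 lower, and the median change was 0.059. With any 1 of the 4 libraries left out, 837 to 1067 genes were called higher and 1166 to 1767 lower, since a group was then a single library.

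The 8 genes with the largest rises included a transcription factor, a lipase-like enzyme and a calcium-linked kinase. ERF13, an ethylene response factor at chr2:18495215-18496327, was at 13.2 and 13.6 FPKM at 6 h, against 1.87 and 1.03 FPKM at 1.5 h, a log2 change of 2.58 ± 0.30 (adjusted p = 0.00018). DLAH, an acylhydrolase of the DAD1-like family, was at 22.5 and 23.1 FPKM at 6 h, against 3.33 and 2.94 FPKM at 1.5 h, a log2 change of 2.53 ± 0.36 (adjusted p = 0.00088). In both genes the 6 h libraries lay close to each other and several-fold above the 1.5 h libraries. CIPK13, a protein kinase that works with calcineurin B-like calcium sensors, was at 12.1 and 14.8 FPKM at 6 h, against 2.06 and 2.15 FPKM at 1.5 h. GAT1_2.1, a glutamine amidotransferase-like protein, was at 21.8 and 27.6 FPKM at 6 h, against 4.48 and 4.01 FPKM at 1.5 h. For both of these, 43.4% and 47.2% of the exon bases lie opposite a gene on the other strand, and how the submitters' counting used strand is not given in the sources used here. The most abundant of the 8 was AT4G32480, of the DUF506 family, at 237 and 251 FPKM at 6 h, against 51.7 and 46.8 FPKM at 1.5 h. AT3G23170, uncharacterized, was at 161 and 157 FPKM at 6 h, against 35.0 and 30.8 FPKM at 1.5 h. AT4G02850, of the PhzC/PhzF family, was at 15.3 and 15.9 FPKM at 6 h, against 2.82 and 2.08 FPKM at 1.5 h. RTFL7, a small peptide of the ROTUNDIFOLIA-like family, rested on few reads, an estimated 10 and 8 at 6 h against 2 and 0 at 1.5 h, and its call ended without replicate 1 of 6 h or replicate 2 of 1.5 h (highest adjusted p 0.17).

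The largest falls went further. RNS1, a secreted ribonuclease that releases phosphate from RNA and responds to wounding, was at 4.28 and 3.04 FPKM at 6 h, against 107 and 68.7 FPKM at 1.5 h, a log2 change of -4.24 ± 0.40 (adjusted p = 7.5e-05); it lies at chr2:873506-874886. IRT1, the main iron uptake transporter of the root epidermis at chr4:10707344-10709015, was at 1.37 and 0.777 FPKM at 6 h, against 14.3 and 18.7 FPKM at 1.5 h, a log2 change of -3.09 ± 0.56 (adjusted p = 0.0037). The 2 libraries of 6 h were more than 10-fold under both libraries of 1.5 h in each. LTI30, a dehydrin induced by cold and water loss, was the most abundant of the 8 genes with the largest falls, at 164 and 151 FPKM at 6 h, against 1346 and 957 FPKM at 1.5 h, a log2 change of -2.84 ± 0.15 (adjusted p = 4.7e-06). AT2G22590, a UDP-glycosyltransferase, was at 5.18 and 6.19 FPKM at 6 h, against 49.6 and 42.1 FPKM at 1.5 h. AT4G18280, a glycine-rich cell wall protein, was at 6.36 and 6.94 FPKM at 6 h, against 63.2 and 48.1 FPKM at 1.5 h. AT4G25433, a LysM domain protein, had an estimated 0 and 1 reads at 6 h against 88 and 65 at 1.5 h, which is 0 and 0.13 FPKM at 6 h, against 14.2 and 10.4 FPKM at 1.5 h. AT2G38240, a 2-oxoglutarate-dependent oxygenase, was at 0.588 and 0.697 FPKM at 6 h, against 24.8 and 10.6 FPKM at 1.5 h, a log2 change of -3.39 ± 0.84 (adjusted p = 0.019), and this call ended in fits of the mock libraries alone and without either library of 6 h (highest adjusted p 0.12). AT5G64401, uncharacterized, had an estimated 1 and 0 reads at 6 h against 8 and 8 at 1.5 h, lies wholly opposite AT5G64400 on the other strand, and was not called without replicate 2 of 6 h (adjusted p 0.089).

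**Figure D1:**
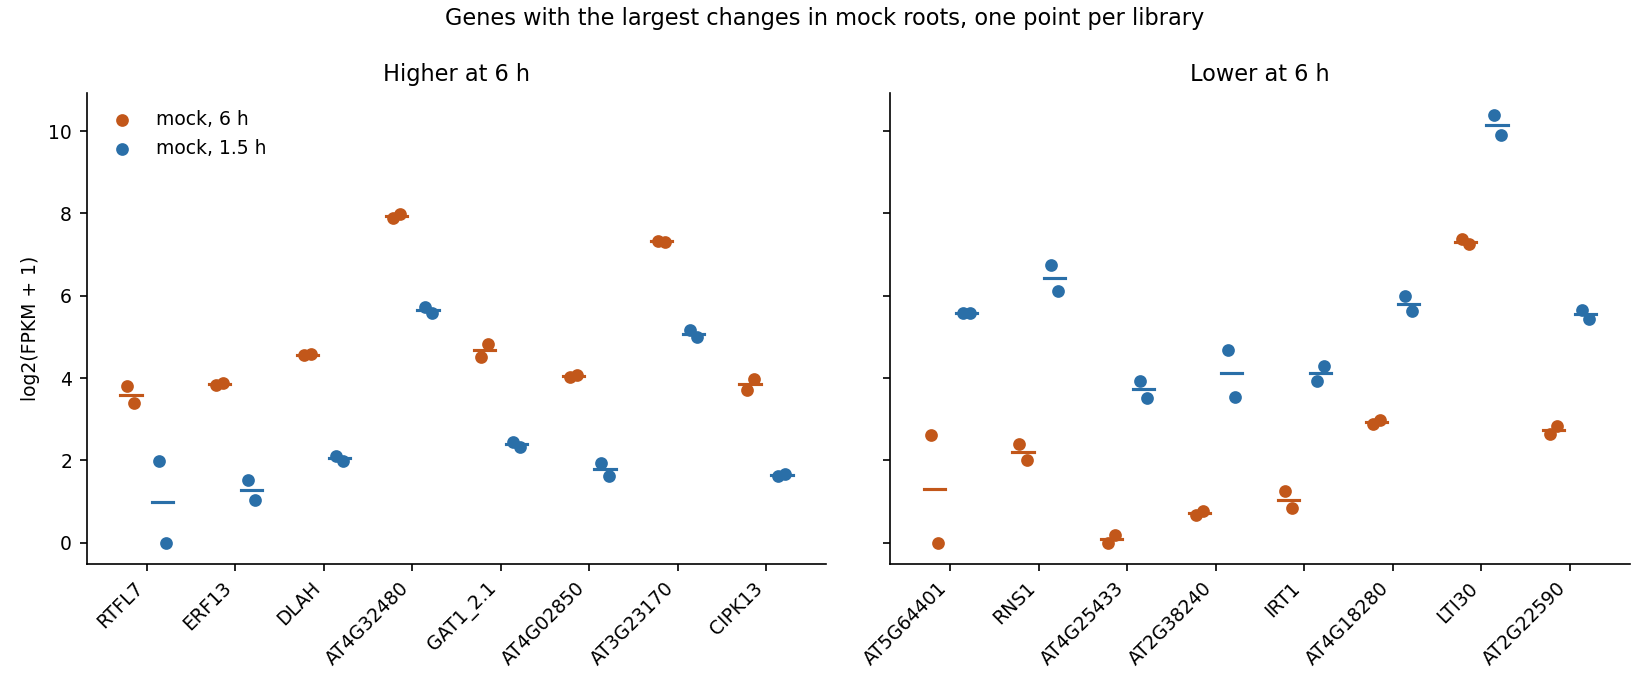
Expression of the 8 genes with the largest rises (left) and the 8 with the largest falls (right), as log2(FPKM + 1), with one point per library, orange for mock at 6 h and blue for mock at 1.5 h, and short lines for the mean of the 2 libraries. Separate groups were a condition for a gene to be shown, and the spread between libraries is widest in RTFL7 and AT5G64401.

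Across 40 gene lists the calls ran in opposite directions. Lists with at least 3 times the background share of calls higher were fast stress transcription factors (13 of 21), ribosomal protein families (148 of 285), cell cycle and replication genes (16 of 33), histones (21 of 45), phosphate scavenging and lipid remodelling genes (8 of 18), expansins (9 of 21), hypoxia genes (7 of 17), jasmonate genes (10 of 26), sulfur genes (6 of 19), epidermal patterning genes (4 of 13) and the root cap and niche list (2 of 6). Lists with that share of calls lower were flavonoid genes (13 of 14), phenylpropanoid genes (11 of 14), morning clock genes (7 of 12), abscisic acid and cold genes (10 of 18), evening clock genes (6 of 12), xylem and phloem genes (5 of 10), nitrate and ammonium genes (16 of 33), ethylene genes (10 of 21), endodermis genes (5 of 12), class III peroxidases (21 of 52), glutathione transferases (19 of 49) and clock outputs (3 of 8). The background shares are 9.92% higher and 12.2% lower.

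**Figure D2:**
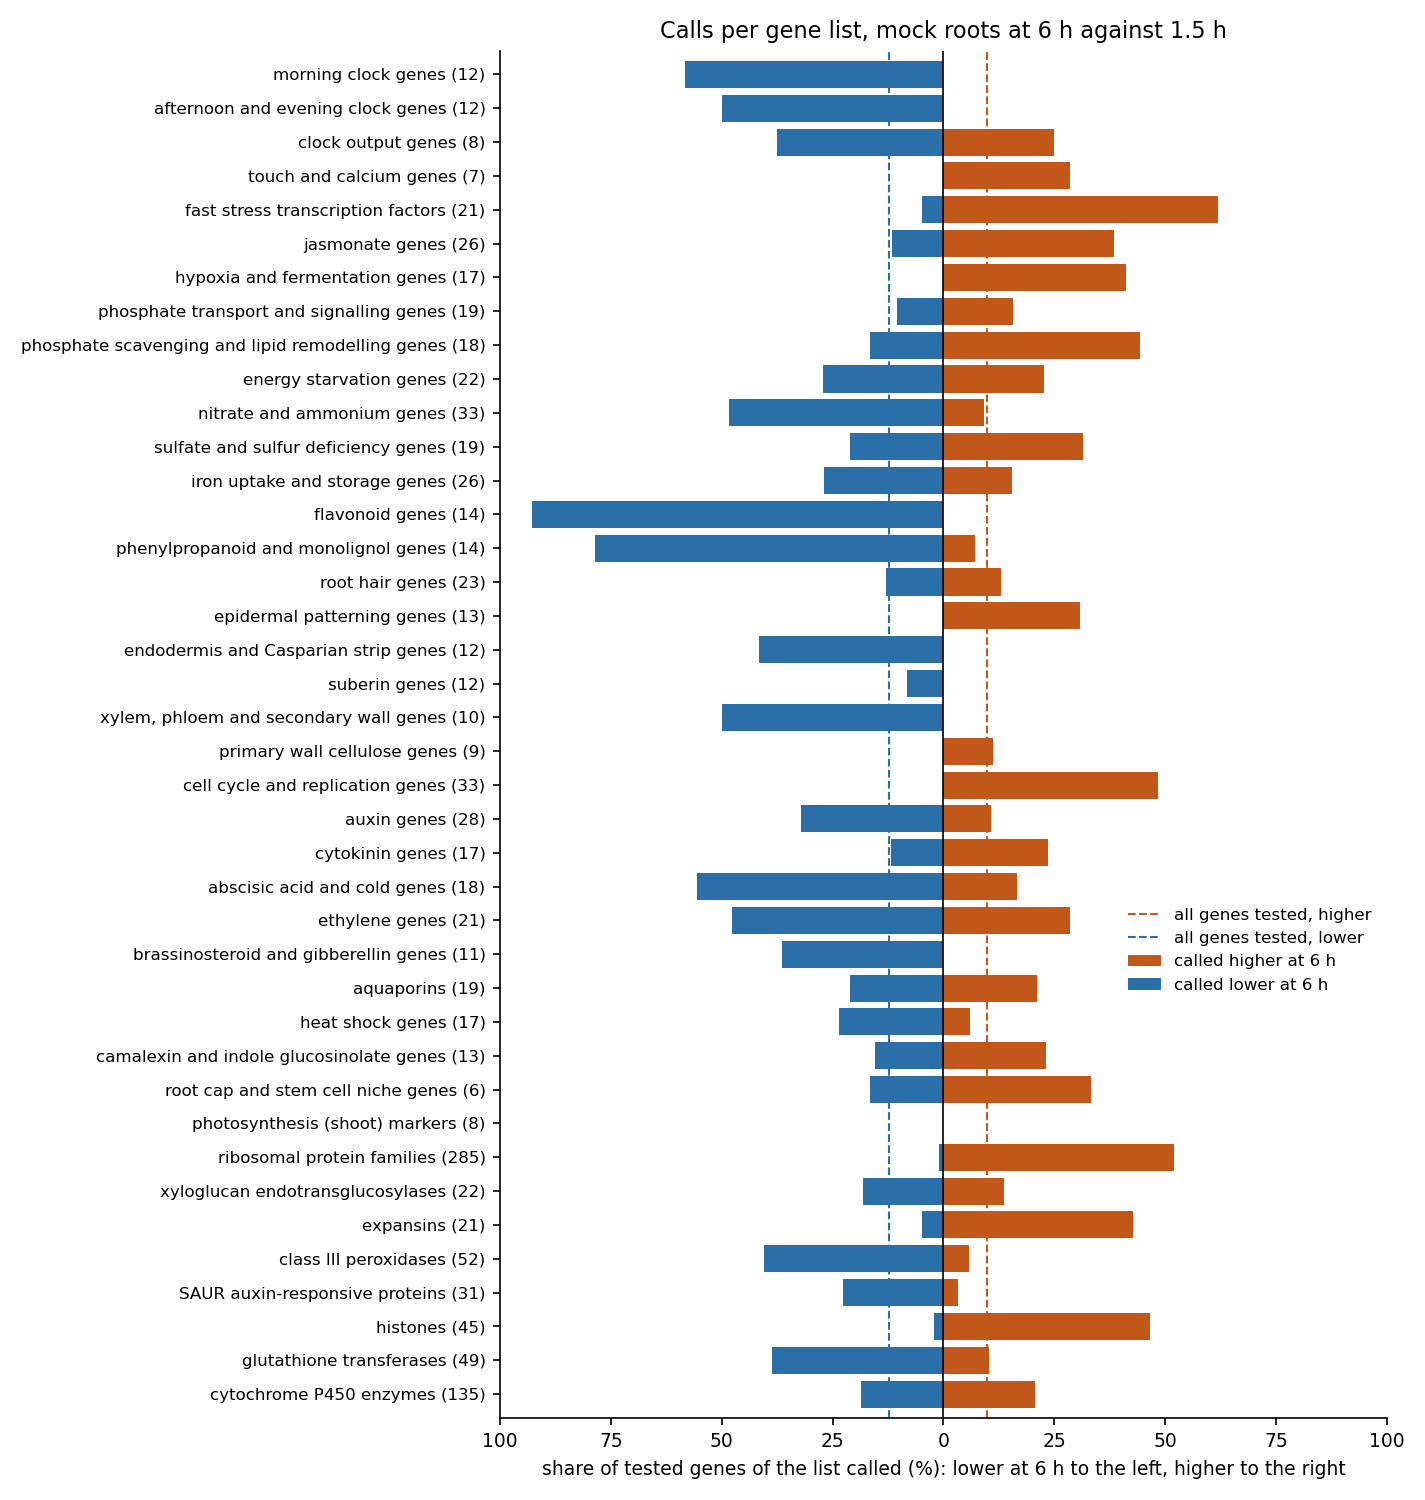
Share of the tested genes of each list that was called higher (orange, to the right) or lower (blue, to the left) at 6 h against 1.5 h in mock roots, with the number tested in brackets. Dashed lines are the shares over all 18800 genes tested, 9.92% higher and 12.2% lower. Flavonoid genes (13 of 14 lower) and fast stress transcription factors (13 of 21 higher) have the highest shares in each direction.

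Genes of both the morning and the evening clock lists fell. Of 12 morning genes tested, 7 fell and none rose, with a median log2 change of -0.75 against -0.0053 over all members; LHY and LNK3 were too low to test. CCA1, a dawn repressor at chr2:19245591-19248915, was at 0.301 and 0.327 FPKM at 6 h, against 1.70 and 2.07 FPKM at 1.5 h, a log2 change of -1.13 ± 0.35 (adjusted p = 0.041). RVE8, which activates evening genes, was at 1.11 and 1.32 FPKM at 6 h, against 5.11 and 4.46 FPKM at 1.5 h, a log2 change of -1.38 ± 0.17 (adjusted p = 0.00030). LNK1, a coactivator that works with RVE8, was at 6.11 and 6.14 FPKM at 6 h, against 15.4 and 14.4 FPKM at 1.5 h, a log2 change of -1.16 ± 0.11 (adjusted p = 6.7e-05). Each of the 3 genes was more than 2-fold lower in both 6 h libraries than in either 1.5 h library. CCA1 levels were low, and its call ended without any 1 of the 4 libraries and without a minimum level (highest adjusted p 0.18). PRR7, a daytime repressor of CCA1, was at 3.09 and 3.35 FPKM at 6 h, against 7.63 and 5.79 FPKM at 1.5 h, a log2 change of -0.86 ± 0.14 (adjusted p = 0.0017). AT5G52660, a homeodomain-like protein, was at 6.30 and 7.71 FPKM at 6 h, against 13.9 and 12.6 FPKM at 1.5 h, a log2 change of -0.83 ± 0.11 (adjusted p = 0.00052). RVE2 was at 31.0 and 33.2 FPKM at 6 h, against 52.5 and 39.5 FPKM at 1.5 h, where the call ended in 5 of 15 alternatives. PRR9 was at 0.826 and 1.09 FPKM at 6 h, against 3.19 and 1.35 FPKM at 1.5 h and was not called (adjusted p = 0.17); 36.2% of its 50-base windows occur elsewhere in the genome. Leaving out 1 of the 4 libraries left 4 to 6 morning genes called lower.

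Among 12 afternoon and evening genes, 6 fell and none rose, with a median of -0.23. GI, a scaffold of clock and flowering control at chr1:8061751-8067790, was at 18.9 and 17.8 FPKM at 6 h, against 36.1 and 35.5 FPKM at 1.5 h, a log2 change of -0.93 ± 0.07 (adjusted p = 1.6e-05). PRR3 was at 6.99 and 7.24 FPKM at 6 h, against 12.1 and 11.7 FPKM at 1.5 h, a log2 change of -0.66 ± 0.08 (adjusted p = 0.00029). TOC1, the evening repressor of CCA1, was at 37.1 and 37.1 FPKM at 6 h, against 53.1 and 47.3 FPKM at 1.5 h, a log2 change of -0.42 ± 0.06 (adjusted p = 0.00058). These 3 kept their calls under all 15 alternatives. No overlap between groups was a condition for naming genes of a list. The evening complex moved less: ELF3 was at 25.8 and 25.5 FPKM at 6 h, against 31.6 and 31.8 FPKM at 1.5 h, a log2 change of -0.30 ± 0.06 (adjusted p = 0.0072). ELF4 was at 349 and 334 FPKM at 6 h, against 379 and 416 FPKM at 1.5 h, a log2 change of -0.22 ± 0.07 (adjusted p = 0.038), a call that ended in 8 of 15 alternatives. LUX was at 81.0 and 76.4 FPKM at 6 h, against 92.2 and 92.9 FPKM at 1.5 h, a log2 change of -0.23 ± 0.09 (adjusted p = 0.088). PRR5 was at 13.1 and 11.8 FPKM at 6 h, against 14.95 and 14.2 FPKM at 1.5 h, a log2 change of -0.22 ± 0.11 (adjusted p = 0.20). Neither LUX nor PRR5 passed the test. In the other direction, the clock-regulated RNA-binding proteins GRP7 and GRP8 rose. GRP7 was at 1753 and 1858 FPKM at 6 h, against 1010.2 and 1066 FPKM at 1.5 h, a log2 change of 0.80 ± 0.07 (adjusted p = 3.0e-05). GRP8 was at 1017 and 1108 FPKM at 6 h, against 648 and 688 FPKM at 1.5 h, a log2 change of 0.67 ± 0.07 (adjusted p = 8.2e-05). The cycling DOF factors CDF1 (1.15 and 0.931 FPKM at 6 h, against 3.76 and 3.68 FPKM at 1.5 h) and CDF3 (1.76 and 1.65 FPKM at 6 h, against 5.25 and 4.83 FPKM at 1.5 h) fell, at log2 changes of -1.22 and -1.16. CDF2 was at 8.52 and 8.49 FPKM at 6 h, against 10.3 and 10.8 FPKM at 1.5 h, a log2 change of -0.28 ± 0.08 (adjusted p = 0.034), a call that ended in 8 of 15 alternatives. Of 8 outputs 2 were called higher and 3 lower, or 2 lower without any 1 library.

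**Figure D3:**
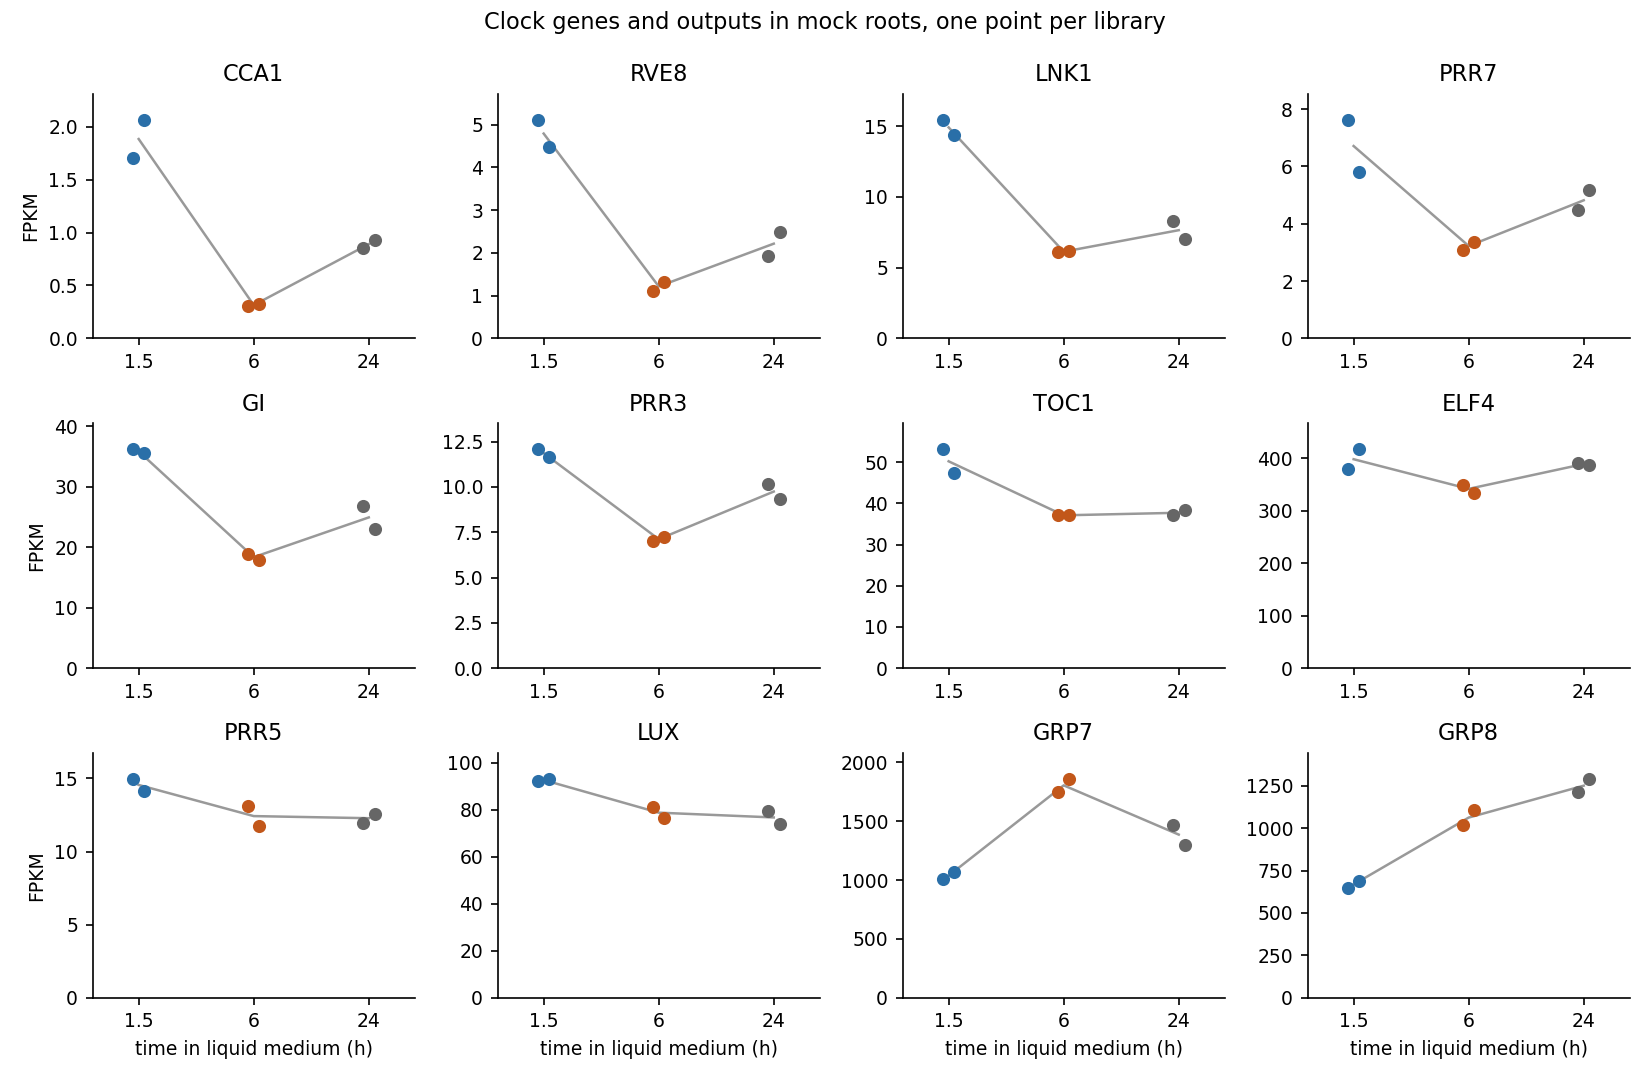
FPKM of 12 clock genes and outputs in mock roots at 1.5, 6 and 24 h in liquid medium, one point per library, with a grey line through the means of the 2 libraries and each vertical axis starting at 0. CCA1, RVE8, LNK1, PRR7, GI and PRR3 are lowest at 6 h, and GRP7 is highest there at 1753 and 1858 FPKM.

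Mock roots at 24 h, not tested here, gave the third time of the series. GI was at 36.1 and 35.5 FPKM at 1.5 h, 18.9 and 17.8 FPKM at 6 h and 26.8 and 23.0 FPKM at 24 h, and RVE8 at 5.11 and 4.46, 1.11 and 1.32 and 1.93 and 2.498 FPKM. In both genes the 24 h libraries lay between the other groups. TOC1 at 24 h (37.1 and 38.4 FPKM) overlapped its 6 h level.

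The promoters of these genes were searched for the elements through which the clock factors act, in the 250 bases before the annotated start. Of 16 clock genes named by the rule, 5 held the evening element AAAATATCT on either strand, 3 the CCA1-binding site AAAAATCT and 6 the G-box CACGTG. Over all 18369 promoters of tested members the shares were 2.42%, 6.70% and 7.28%. The sequences below are from RefSeq's TAIR10.1 assembly, on the strand of the gene, with the elements in capitals; they are shown because GRP7 and GRP8 rose while TOC1 fell and PRR5 and LUX were not called, and all 5 hold evening elements. GRP7 holds 3 of them within 76 bases of its start. The segments lie at chr2:9266560-9266653 (GRP7, minus strand), chr4:18275217-18275248 (GRP8, minus), chr5:24674792-24674840 (TOC1, plus), chr5:8358705-8358764 (PRR5, minus, with a CCA1-binding site before the evening element) and chr3:17182829-17183017 (LUX, plus, with a G-box before it).
GRP7: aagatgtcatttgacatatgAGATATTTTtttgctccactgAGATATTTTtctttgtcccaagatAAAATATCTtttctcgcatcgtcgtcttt
GRP8: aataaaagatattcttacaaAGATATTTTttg
TOC1: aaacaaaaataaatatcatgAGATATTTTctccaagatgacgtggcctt
PRR5: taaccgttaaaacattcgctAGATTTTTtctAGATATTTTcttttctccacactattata
LUX: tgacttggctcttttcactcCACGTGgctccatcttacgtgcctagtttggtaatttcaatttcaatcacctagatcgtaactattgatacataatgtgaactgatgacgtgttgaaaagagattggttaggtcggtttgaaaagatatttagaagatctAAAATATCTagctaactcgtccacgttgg

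A G-box was found in PRR7, CCA1, RVE2 and CDF2, which fell, and in PRR9 and LUX, which were not called. The segments are shown for CCA1 at chr2:19245378-19245423 (plus) and PRR7 at chr5:642206-642251 (minus).
CCA1: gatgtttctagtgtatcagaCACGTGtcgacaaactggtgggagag
PRR7: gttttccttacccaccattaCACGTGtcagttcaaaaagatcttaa

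The share of promoters with an evening element was 2.44% among genes called higher and 2.66% among genes called lower, beside 2.42% over all members. For the G-box the shares were 8.62% and 7.55%, beside 7.28% over all members. Among genes called higher by 2-fold or more 11.1% (19 of 171) held one, and among those called lower by 2-fold or more 9.04% (31 of 343). A match is a run of letters, and binding there was not measured.

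Of 19 phosphate transport and signalling genes, 3 rose (15.8%) and 2 fell (10.5%), with a median of -0.20. Over all members 9.92% rose and 12.2% fell. PHT1;1, the main phosphate importer of the root, was at 409.6 and 423 FPKM at 6 h, against 614 and 697 FPKM at 1.5 h, a log2 change of -0.65 ± 0.09 (adjusted p = 0.00044); 41.5% of its 50-base windows occur elsewhere in the genome, so its value can include its close copies. PHT1;4, its partner in phosphate uptake, was at 174 and 172 FPKM at 6 h, against 194 and 246 FPKM at 1.5 h and was not called (adjusted p = 0.086). IPS1, a noncoding RNA that sequesters miR399, was at 293 and 290.3 FPKM at 6 h, against 469 and 391 FPKM at 1.5 h, a log2 change of -0.55 ± 0.11 (adjusted p = 0.0045). AT4, of the same family, was at 1404 and 1397 FPKM at 6 h, against 1862 and 1596 FPKM at 1.5 h without a call. In PHT1;1 and IPS1 the groups did not overlap, as in every called gene. SPX3, a phosphate sensor protein and a sensitive marker of starvation, was at 18.5 and 21.3 FPKM at 6 h, against 9.24 and 8.57 FPKM at 1.5 h, a log2 change of 1.08 ± 0.15 (adjusted p = 0.00062). SPX1, which restrains PHR1, was at 468 and 507 FPKM at 6 h, against 377 and 331 FPKM at 1.5 h, a log2 change of 0.46 ± 0.09 (adjusted p = 0.0047). PHO1;H1, a relative of the xylem phosphate exporter PHO1, also rose (log2 change 0.37). Leaving out 1 library gave 1 to 3 calls higher and 2 to 4 lower, the most without replicate 1 of 1.5 h, and SPX1 lost its call without replicate 2 of 6 h (adjusted p 0.053). In fits of only the 4 mock libraries 6 of the 19 were called lower, and 4 with median-of-ratios scaling.

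Genes that replace phospholipids rose together with a phosphatase. Of 18 scavenging and lipid remodelling genes, 8 rose and 3 fell (median 0.25). MGD2, a galactolipid synthase, was at 10.1 and 11.1 FPKM at 6 h, against 5.22 and 4.54 FPKM at 1.5 h, a log2 change of 0.99 ± 0.14 (adjusted p = 0.00058). MGD3 was at 23.9 and 31.99 FPKM at 6 h, against 13.6 and 14.99 FPKM at 1.5 h. SQD2, the last enzyme of sulfolipid synthesis, was at 133 and 149 FPKM at 6 h, against 69.6 and 73.8 FPKM at 1.5 h, a log2 change of 0.96 ± 0.11 (adjusted p = 0.00013). PS2, a phosphatase induced by phosphate starvation, was at 129 and 142 FPKM at 6 h, against 72.7 and 71.1 FPKM at 1.5 h. NPC4, a phospholipase C, was at 42.2 and 49.0 FPKM at 6 h, against 28.2 and 32.4 FPKM at 1.5 h. The log2 changes of these 5 were 0.57 to 0.99, with groups that did not overlap, as in every called gene. Without 1 library 4 to 7 were called higher and 1 to 2 lower. RNS1, described above, went the other way. At 24 h, not tested here, SQD2 had 419 and 398 FPKM, PS2 709 and 647 FPKM and SPX3 211 and 197 FPKM, beside 1510.2 and 1608 FPKM for IPS1 and 15.2 and 8.24 FPKM for RNS1.

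Of 8 phosphate genes named by the rule, SPX3 and MGD2 held the P1BS element GNATATNC, the site that PHR1 binds, in the 250 bases before the start, against 5.47% of all promoters searched and 6.94% of those of genes called higher. The segments lie at chr2:18606177-18606347 (SPX3, plus) and chr5:6896429-6896462 (MGD2, plus), with the element in capitals.
SPX3: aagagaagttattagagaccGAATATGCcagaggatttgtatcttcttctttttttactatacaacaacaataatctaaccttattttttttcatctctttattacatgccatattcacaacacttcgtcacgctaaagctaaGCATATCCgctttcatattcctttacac
MGD2: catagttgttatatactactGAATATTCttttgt

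Of 33 nitrate and ammonium genes, 16 fell, 3 rose and 14 were not called (median -0.23). NRT2.1, the high-affinity nitrate transporter, was at 274 and 284 FPKM at 6 h, against 689 and 628 FPKM at 1.5 h, a log2 change of -1.24 ± 0.22 (adjusted p = 0.0048), and its partner protein NRT3.1 at 188 and 202 FPKM at 6 h, against 510.1 and 416 FPKM at 1.5 h, a log2 change of -1.24 ± 0.09 (adjusted p = 1.3e-05). AMT1;2, an ammonium transporter, was at 41.5 and 41.6 FPKM at 6 h, against 103 and 104 FPKM at 1.5 h, a log2 change of -1.29 ± 0.07 (adjusted p = 1.8e-06). All 3 were lower by more than 2-fold in mean FPKM, with groups far apart. NRT1.1, the dual-affinity nitrate transporter and sensor, was at 64.5 and 64.5 FPKM at 6 h, against 137 and 107 FPKM at 1.5 h, and the glutamine synthetase GLN1;2 at 498 and 522 FPKM at 6 h, against 916 and 905 FPKM at 1.5 h. The 2 nitrate reductase genes moved in opposite directions: NIA1 was at 209 and 213 FPKM at 6 h, against 157 and 153 FPKM at 1.5 h (log2 change 0.44) and NIA2 at 144 and 156 FPKM at 6 h, against 193 and 216 FPKM at 1.5 h (log2 change -0.44). Between 11 and 17 of the list were called lower, and 0 to 1 higher, when 1 library was left out.

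In sulfur metabolism the root's sulfate importer fell and some assimilation genes rose. SULTR1;2, the main sulfate importer, was at 43.0 and 42.8 FPKM at 6 h, against 253 and 207 FPKM at 1.5 h, a log2 change of -2.39 ± 0.12 (adjusted p = 1.8e-06). SERAT2;1, a serine acetyltransferase of cysteine synthesis, also fell, with a log2 change of -1.26 ± 0.09 (adjusted p = 9.2e-06). APS3, an ATP sulfurylase that activates sulfate, was at 17.38 and 19.99 FPKM at 6 h, against 7.41 and 7.22 FPKM at 1.5 h, a log2 change of 1.24 ± 0.18 (adjusted p = 0.00068). APR1, an APS reductase, was at 113 and 117 FPKM at 6 h, against 67.9 and 70.3 FPKM at 1.5 h (log2 change 0.73). Another APS reductase, APR3, and the ATP sulfurylase APS4 fell (log2 changes -0.44 and -0.19). Over the 19 genes tested 6 rose and 4 fell (median 0.22), and 3 to 5 and 2 to 3 were called with 1 library left out.

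Of 26 iron uptake and storage genes, 7 fell, 4 rose and 15 were not called (median -0.18). FRO2, the ferric chelate reductase that works with IRT1, was at 1.24 and 1.05 FPKM at 6 h, against 5.42 and 7.24 FPKM at 1.5 h (log2 change -1.77, adjusted p = 0.019). FRU, also known as FIT, the factor that induces both, was at 19.5 and 19.4 FPKM at 6 h, against 42.5 and 50.9 FPKM at 1.5 h, a log2 change of -1.22 ± 0.12 (adjusted p = 8.2e-05). The ferritins FER1 and FER3, which store iron, rose: FER1 was at 131 and 134 FPKM at 6 h, against 72.3 and 68.0 FPKM at 1.5 h, a log2 change of 0.91 ± 0.10 (adjusted p = 0.00012). FER3 was at 60.4 and 61.2 FPKM at 6 h, against 36.9 and 34.3 FPKM at 1.5 h. The oligopeptide transporter OPT3 fell (log2 change -0.76), and the nicotianamine synthase NAS1 rose (log2 change 0.85). With 1 library left out 4 to 5 of the list were called lower. By 24 h IRT1 was at 84.4 and 90.5 FPKM and FRO2 at 40.2 and 45.3 FPKM, above both earlier times.

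**Figure D4:**
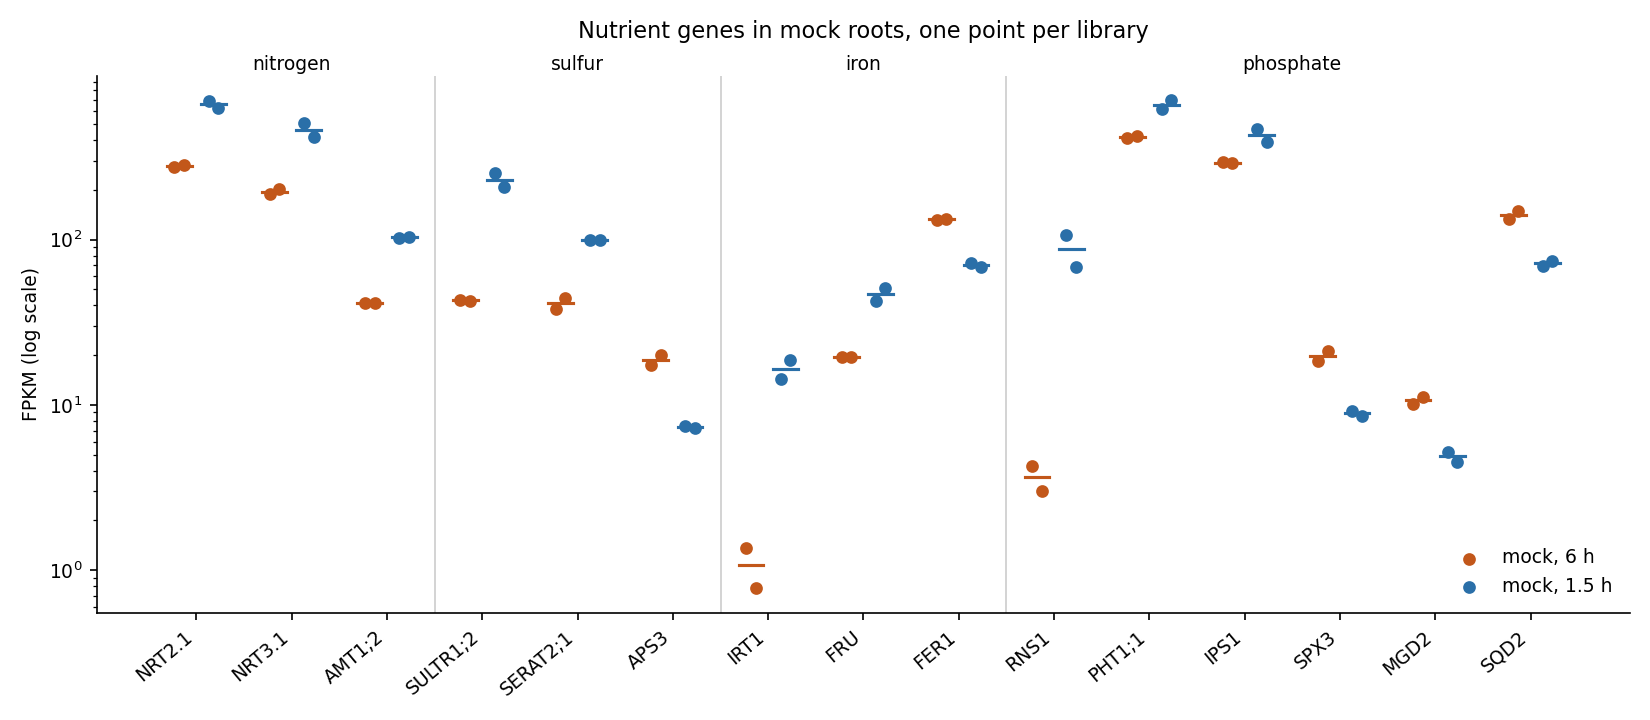
FPKM on a log axis of 15 nitrogen, sulfur, iron and phosphate genes in mock roots, one point per library, orange for 6 h and blue for 1.5 h, with short lines for the means of the 2 libraries. Uptake genes such as NRT2.1, SULTR1;2 and IRT1 sit lower at 6 h, and FER1, APS3, SPX3, MGD2 and SQD2 sit higher.

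Flavonoid genes had the highest share of calls in 1 direction among the 40 lists. Of 14 genes tested, 13 fell and none rose, with a median log2 change of -0.98. MYB12, the factor that activates flavonol synthesis in roots, was at 45.1 and 44.7 FPKM at 6 h, against 135 and 90.06 FPKM at 1.5 h, a log2 change of -1.28 ± 0.16 (adjusted p = 0.00044). Several enzymes along the path were called lower. 4CL3, the ligase that feeds it, was at 40.1 and 37.8 FPKM at 6 h, against 132 and 116 FPKM at 1.5 h, a log2 change of -1.64 ± 0.10 (adjusted p = 5.8e-06). F3H, the flavanone hydroxylase, was at 303 and 298 FPKM at 6 h, against 652 and 671 FPKM at 1.5 h. FLS1, flavonol synthase, was at 548 and 544 FPKM at 6 h, against 1106 and 1120.4 FPKM at 1.5 h. The glucosyltransferases UGT78D2 (90.5 and 89.9 FPKM at 6 h, against 247 and 219 FPKM at 1.5 h) and UGT84A1 (32.01 and 25.7 FPKM at 6 h, against 84.2 and 67.2 FPKM at 1.5 h) both fell by 1.36 on the log2 scale. The light-response factors HY5 and HYH also fell: HY5 was at 77.8 and 75.5 FPKM at 6 h, against 115 and 116 FPKM at 1.5 h, a log2 change of -0.59 ± 0.05 (adjusted p = 4.7e-05). HYH was at 39.9 and 34.8 FPKM at 6 h, against 77.8 and 74.4 FPKM at 1.5 h, a log2 change of -1.01 ± 0.09 (adjusted p = 3.5e-05). TT4, chalcone synthase and the first committed step, was at 1809 and 1888 FPKM at 6 h, against 1886 and 2426 FPKM at 1.5 h and was the 1 gene not called (log2 change -0.21, adjusted p = 0.49). Single libraries left out gave 9 to 11 genes called lower, and a fit without precision weights gave 8. Replicate 1 of 1.5 h had the higher shoot marker sum, and the part of shoot material in these falls was not tested.

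Genes of the general phenylpropanoid path and of lignin monomers moved with them: 11 of 14 fell and 1 rose (median -0.56). PAL1 and PAL2 encode phenylalanine ammonia-lyase, the entry step. PAL1 was at 426 and 405 FPKM at 6 h, against 828 and 833 FPKM at 1.5 h. PAL2 was at 155 and 153 FPKM at 6 h, against 352 and 345 FPKM at 1.5 h, a log2 change of -1.17 ± 0.11 (adjusted p = 6.0e-05). CYP98A3, the coumarate ester hydroxylase, was at 94.6 and 93.3 FPKM at 6 h, against 184 and 202 FPKM at 1.5 h, a log2 change of -1.03 ± 0.11 (adjusted p = 0.00014). CAD5, cinnamyl alcohol dehydrogenase, was at 81.6 and 76.5 FPKM at 6 h, against 188 and 163 FPKM at 1.5 h, a log2 change of -1.14 ± 0.13 (adjusted p = 0.00018). FAH1, ferulate 5-hydroxylase, was the 1 gene called higher, at 26.4 and 31.9 FPKM at 6 h, against 18.4 and 25.003 FPKM at 1.5 h, a log2 change of 0.42 ± 0.12 (adjusted p = 0.030); that call ended in 6 of the alternatives, among them those without replicate 2 of 6 h or replicate 1 of 1.5 h. From 9 to 11 of the list were called lower without 1 library.

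**Figure D5:**
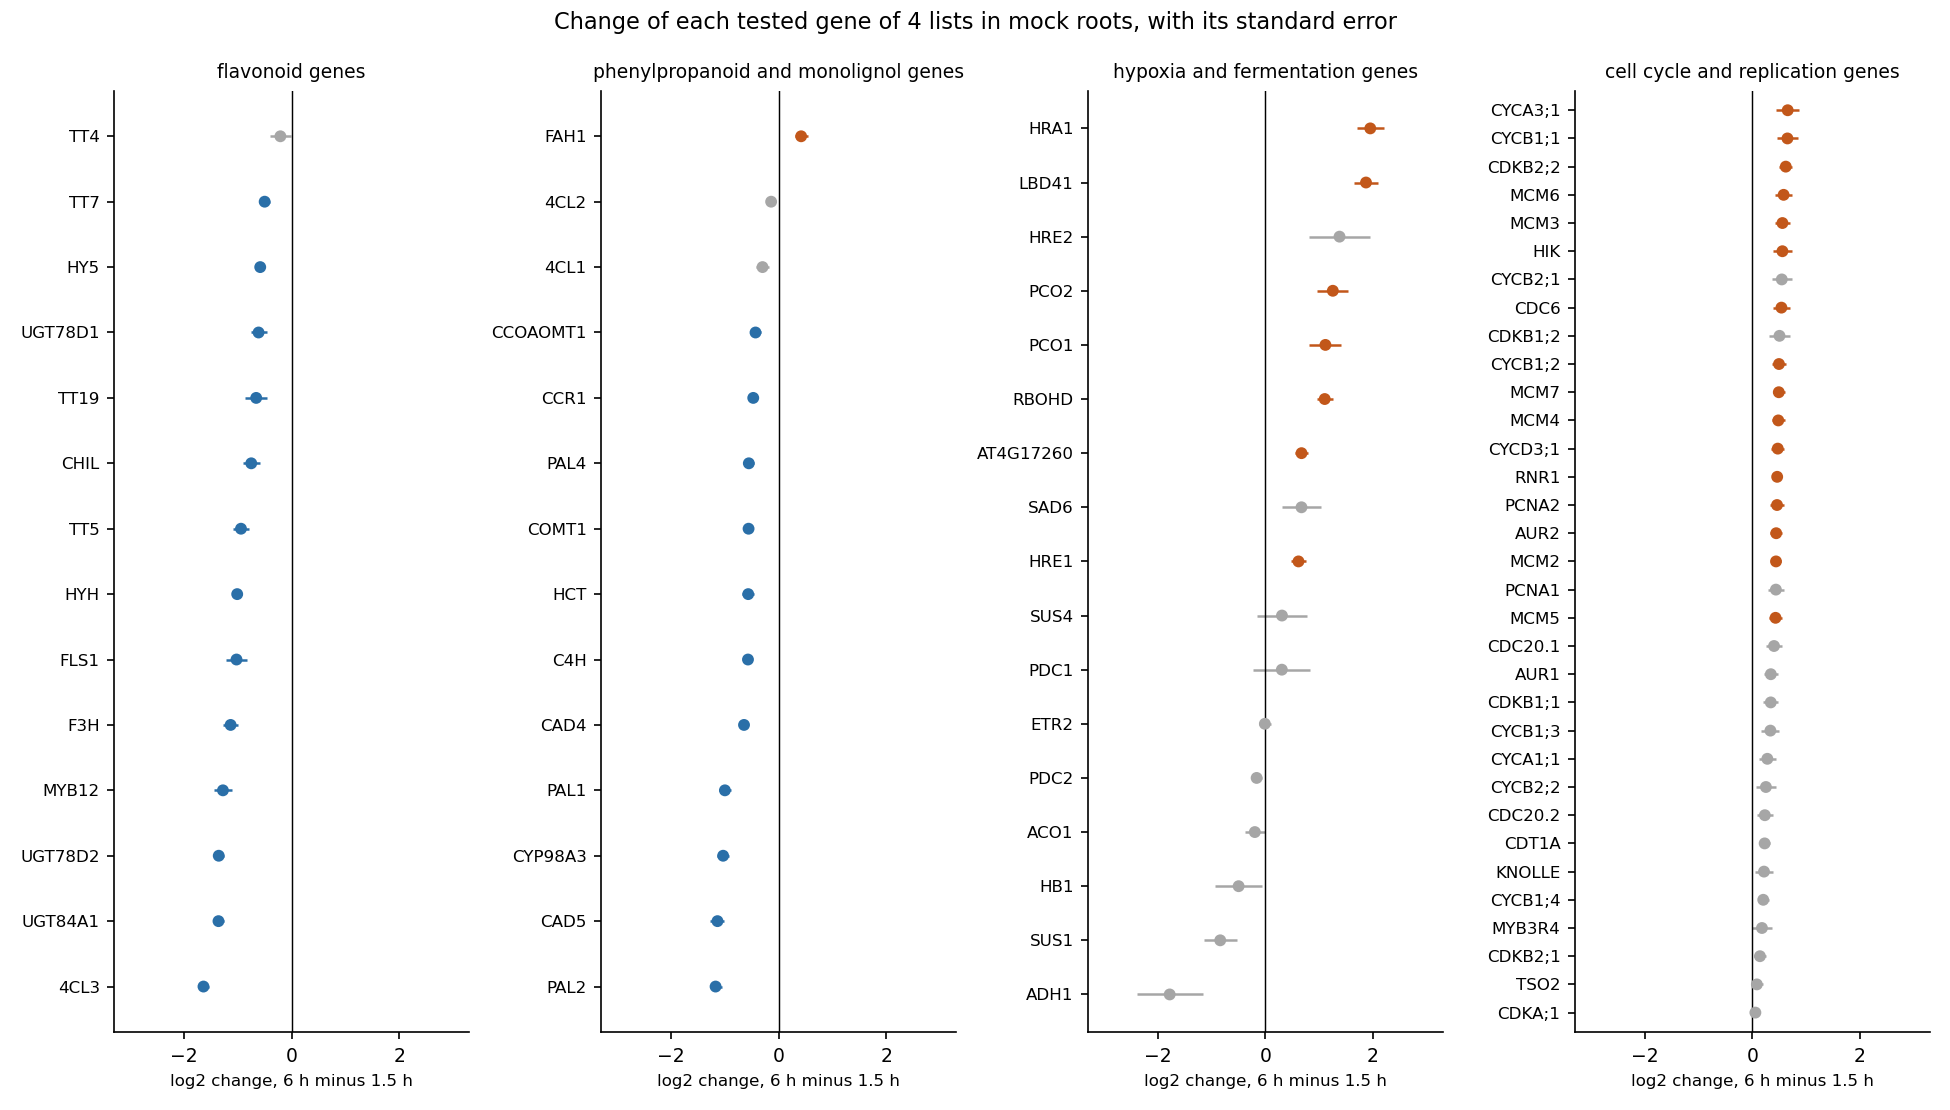
Log2 change at 6 h minus 1.5 h of each tested gene of 4 lists in mock roots, points with bars for the standard error, orange for genes called higher, blue for genes called lower and grey for genes not called. All 14 flavonoid genes lie below 0 and all 33 cell cycle genes above it, while hypoxia genes run from ADH1 at -1.78 (not called) to HRA1 at 1.95.

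Cold and water-stress genes fell, several of them abundant transcripts. RD29A, a classical marker of cold, drought and abscisic acid, was at 62.6 and 61.3 FPKM at 6 h, against 444 and 312 FPKM at 1.5 h, a log2 change of -2.57 ± 0.18 (adjusted p = 2.0e-05). The dehydrins ERD10 (224 and 209 FPKM at 6 h, against 1033 and 831 FPKM at 1.5 h, log2 change -2.09) and COR47 (1285 and 1253 FPKM at 6 h, against 3610.3 and 3112 FPKM at 1.5 h, log2 change -1.40) fell, and so did KIN2 (1221 and 1384 FPKM at 6 h, against 3032 and 3176 FPKM at 1.5 h, log2 change -1.25). In each the 1.5 h libraries were at least 2-fold over the 6 h libraries. The receptors PYL4, PYL5 and PYL6 and the phosphatase ABI1, which they inhibit, were lower too, with ABI1 at 49.8 and 50.3 FPKM at 6 h, against 103 and 92.8 FPKM at 1.5 h, a log2 change of -0.95 ± 0.07 (adjusted p = 9.2e-06). The hydroxylases CYP707A1 and CYP707A3, which break abscisic acid down, rose: CYP707A3 was at 22.7 and 24.9 FPKM at 6 h, against 12.8 and 13.4 FPKM at 1.5 h, a log2 change of 0.82 ± 0.18 (adjusted p = 0.0082). In all, 10 of 18 genes fell and 3 rose (median -0.59). Leaving out a library gave 10 to 11 calls lower and 1 to 3 higher. At 24 h RD29A was at 51.3 and 49.2 FPKM and KIN2 at 441 and 548 FPKM.

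Among hypoxia genes, regulators and oxygen sensors rose. Of 17 tested, 7 rose and none was called lower (median 0.61), and 11 had a change above 0. Summed FPKM of the list overlapped, at 2330.1 and 2673.5 at 6 h, against 2740.9 and 2434.2 at 1.5 h. HRA1, a trihelix factor that attenuates the low-oxygen response, was at 206 and 215 FPKM at 6 h, against 46.8 and 61.8 FPKM at 1.5 h, a log2 change of 1.95 ± 0.25 (adjusted p = 0.00081). LBD41, a hypoxia-induced factor, was at 436 and 441 FPKM at 6 h, against 94.5 and 150.2 FPKM at 1.5 h, a log2 change of 1.87 ± 0.21 (adjusted p = 0.00034). The plant cysteine oxidases PCO1 (98.1 and 113 FPKM at 6 h, against 43.8 and 52.9 FPKM at 1.5 h) and PCO2 (79.5 and 92.7 FPKM at 6 h, against 38.8 and 32.5 FPKM at 1.5 h), which act as oxygen sensors, were higher at log2 changes of 1.11 and 1.25. HRE1 (log2 change 0.61) and the NADPH oxidase RBOHD also rose. PCO2 lost its call in 4 of 15 alternatives. ADH1, alcohol dehydrogenase and the standard marker of fermentation, was at 264 and 368 FPKM at 6 h, against 1166 and 992 FPKM at 1.5 h and did not pass the test (log2 change -1.78, adjusted p = 0.078). Without 1 library 4 to 6 genes were called higher, and with only the 6 mock libraries 4. The fit of only the 4 libraries called 2 of the list lower, and that with replicate number as a term 1.

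Fast stress transcription factors rose: 13 of 21 tested were called higher and 1 lower (median 0.79). SZF1, a zinc finger protein of salt and chitin responses, was at 48.3 and 54.3 FPKM at 6 h, against 15.1 and 14.2 FPKM at 1.5 h, a log2 change of 1.74 ± 0.28 (adjusted p = 0.0023). WRKY33, a regulator of camalexin synthesis, was at 72.6 and 87.9 FPKM at 6 h, against 24.7 and 24.0 FPKM at 1.5 h, a log2 change of 1.68 ± 0.33 (adjusted p = 0.0089). WRKY40 was at 37.4 and 50.5 FPKM at 6 h, against 15.6 and 10.9 FPKM at 1.5 h. ERF6 was at 47.2 and 52.9 FPKM at 6 h, against 17.8 and 13.2 FPKM at 1.5 h. In these 4 genes both 6 h libraries were at least 2-fold above both 1.5 h libraries. ERF105 was at 39.0 and 29.7 FPKM at 6 h, against 16.8 and 5.75 FPKM at 1.5 h, a log2 change of 1.67 ± 0.41 (adjusted p = 0.019), lies wholly opposite AT5G51180 on the other strand, and lost its call in 4 of 15 alternatives. MYB44 was the 1 factor that fell, at 108 and 110.2 FPKM at 6 h, against 167 and 144 FPKM at 1.5 h, a log2 change of -0.51 ± 0.07 (adjusted p = 0.00087). From 5 to 12 were called higher without 1 library, the fewest without replicate 2 of 1.5 h; 8 were called without a minimum level and 6 with only the 6 mock libraries. WRKY33 was among those not called with the 6 mock libraries, and also without replicate 2 of either group (highest adjusted p 0.10).

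Of 7 touch and calcium genes, the calmodulin-like genes CML38 and CML39 rose and no gene was called lower (median 0.52). CML38 was at 143 and 159.5 FPKM at 6 h, against 51.7 and 20.3 FPKM at 1.5 h, a log2 change of 2.19 ± 0.39 (adjusted p = 0.0058). CML39 was at 25.3 and 27.1 FPKM at 6 h, against 7.399 and 4.92 FPKM at 1.5 h, a log2 change of 1.95 ± 0.30 (adjusted p = 0.0011). The classical touch genes TCH2, TCH3 and TCH4 were not called, at log2 changes of 0.29, -0.41 and 0.66. Leaving out single libraries gave 2 to 3 calls higher, and the fit of the 6 mock libraries gave 1.

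In the jasmonate list several repressors and MYC2 rose, and enzymes that modify the hormone fell. JAZ2, a JAZ repressor, was at 44.9 and 49.9 FPKM at 6 h, against 26.1 and 20.5 FPKM at 1.5 h, a log2 change of 1.003 ± 0.13 (adjusted p = 0.00040). JAZ8, another, was at 8.32 and 7.94 FPKM at 6 h, against 0.840 and 1.05 FPKM at 1.5 h, a log2 change of 2.23 ± 0.29 (adjusted p = 0.00043). MYC2, the main jasmonate factor, was at 86.2 and 95.6 FPKM at 6 h, against 52.5 and 47.2 FPKM at 1.5 h. OPCL1, a ligase of jasmonate synthesis, was at 44.9 and 48.3 FPKM at 6 h, against 25.4 and 26.9 FPKM at 1.5 h. ST2A, a sulfotransferase that inactivates hydroxyjasmonate, was at 19.6 and 20.3 FPKM at 6 h, against 68.9 and 55.7 FPKM at 1.5 h, a log2 change of -1.59 ± 0.17 (adjusted p = 0.00017). CYP94B3, which oxidises jasmonoyl-isoleucine, was at 12.2 and 12.6 FPKM at 6 h, against 36.1 and 28.5 FPKM at 1.5 h, a log2 change of -1.30 ± 0.23 (adjusted p = 0.0033). JAR1, which makes jasmonoyl-isoleucine, fell as well (log2 change -0.39). Of 26 genes 10 rose and 3 fell (median 0.24). Leave-outs of 1 library gave 5 to 8 calls higher and 3 to 4 lower, and without a minimum level 5 were called higher.

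Of 17 heat shock genes tested 4 fell (23.5%) and 1 rose (5.88%), with a median of -0.16. Over all members 12.2% fell and 9.92% rose. HSP70 was at 94.0 and 97.8 FPKM at 6 h, against 231 and 224 FPKM at 1.5 h, a log2 change of -1.24 ± 0.15 (adjusted p = 0.00029). ROF2, a heat-induced immunophilin, was at 22.9 and 28.7 FPKM at 6 h, against 54.9 and 44.3 FPKM at 1.5 h, a log2 change of -0.91 ± 0.19 (adjusted p = 0.0077). HSP90.1 was at 37.7 and 48.2 FPKM at 6 h, against 85.4 and 66.9 FPKM at 1.5 h, a log2 change of -0.81 ± 0.19 (adjusted p = 0.013). The factor HSFA7A rose (log2 change 0.80), and no gene of the list was called higher without replicate 2 of either group. Without 1 library 1 to 3 were called lower, and 2 without a minimum level; ROF2 and HSP90.1 were not called without replicate 1 of either group (highest adjusted p 0.058 and 0.087).

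Ethylene receptors and their regulators fell and several response factors rose. RTE1, which activates the receptor ETR1, was at 10.3 and 10.6 FPKM at 6 h, against 26.9 and 26.6 FPKM at 1.5 h, a log2 change of -1.27 ± 0.11 (adjusted p = 2.6e-05). EBF2, an F-box protein that removes EIN3, was at 75.4 and 70.4 FPKM at 6 h, against 143 and 142 FPKM at 1.5 h, a log2 change of -0.96 ± 0.06 (adjusted p = 4.4e-06); 21.4% of its exon bases lie opposite other genes. The receptor ERS1 was at 64.3 and 62.7 FPKM at 6 h, against 116 and 119 FPKM at 1.5 h and the kinase CTR1 at 30.8 and 29.2 FPKM at 6 h, against 50.0 and 63.4 FPKM at 1.5 h, and both fell. RAV1, an AP2/B3 domain factor, was at 72.5 and 80.0 FPKM at 6 h, against 25.2 and 20.3 FPKM at 1.5 h, a log2 change of 1.71 ± 0.13 (adjusted p = 1.4e-05), and ERF1 and ERF2 rose (log2 changes 0.74 and 0.83). The counts were 10 lower and 6 higher of 21 (median -0.33), with 8 to 10 lower and 2 to 4 higher when 1 library was left out and 3 higher with only the 6 mock libraries.

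Auxin genes fell more often than they rose, 9 against 3 of 28 (median -0.11). PIN4, an auxin exporter of the root tip, was at 8.37 and 8.31 FPKM at 6 h, against 17.0 and 15.4 FPKM at 1.5 h, a log2 change of -0.88 ± 0.08 (adjusted p = 3.3e-05). YUC9, an auxin synthesis enzyme, was at 4.39 and 4.01 FPKM at 6 h, against 6.26 and 7.87 FPKM at 1.5 h, a log2 change of -0.63 ± 0.17 (adjusted p = 0.023). LBD16, a factor of lateral root initiation, was at 5.18 and 5.27 FPKM at 6 h, against 8.40 and 8.54 FPKM at 1.5 h, a log2 change of -0.61 ± 0.13 (adjusted p = 0.0089). LBD16 was not called without replicate 1 or replicate 2 of 6 h, and YUC9 not without either of these, without replicate 2 of 1.5 h or without precision weights. Leaving out a library left 4 to 9 called lower and 1 to 2 higher, and a fit without precision weights 5 and 1. Of 31 SAUR genes, which are early auxin targets, 7 fell and 1 rose, led by AT5G20820 at 22.7 and 20.9 FPKM at 6 h, against 47.4 and 53.9 FPKM at 1.5 h; 3 to 5 were called lower, and none higher, without 1 library.

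Cytokinin response regulators rose. ARR7 was at 28.6 and 30.7 FPKM at 6 h, against 14.9 and 13.6 FPKM at 1.5 h, a log2 change of 1.008 ± 0.12 (adjusted p = 0.00018). ARR5 was at 25.4 and 21.4 FPKM at 6 h, against 14.1 and 14.3 FPKM at 1.5 h, a log2 change of 0.68 ± 0.11 (adjusted p = 0.0018); both are feedback repressors that report cytokinin signalling. IPT5, a cytokinin synthesis enzyme, was at 8.68 and 7.97 FPKM at 6 h, against 13.9 and 14.9 FPKM at 1.5 h, a log2 change of -0.73 ± 0.10 (adjusted p = 0.00052). The list held 4 rises and 2 falls among 17 genes (median 0.23), and 1 to 2 fell when 1 library was left out. The cytokinin rises were 23.5% and the falls 11.8%, beside 9.92% and 12.2% over all members. Among 11 brassinosteroid and gibberellin genes 4 fell and none rose, led by GA2OX6, which inactivates gibberellin, at 9.80 and 8.46 FPKM at 6 h, against 27.4 and 29.4 FPKM at 1.5 h, a log2 change of -1.54 ± 0.24 (adjusted p = 0.0017). BR6OX2, which makes brassinolide, was at 13.7 and 12.04 FPKM at 6 h, against 21.96 and 18.7 FPKM at 1.5 h, and the gibberellin receptor GID1B at 36.0 and 37.0 FPKM at 6 h, against 54.4 and 57.4 FPKM at 1.5 h.

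Genes of growth and division were higher at 6 h by small amounts. All 33 cell cycle and replication genes tested had a change above 0 (median 0.44), and 16 passed the test. CYCB1;1, a mitotic cyclin, was at 7.21 and 7.45 FPKM at 6 h, against 3.77 and 4.89 FPKM at 1.5 h, a log2 change of 0.65 ± 0.20 (adjusted p = 0.037). CDKB2;2, a mitotic kinase, was at 14.6 and 15.3 FPKM at 6 h, against 10.3 and 8.58 FPKM at 1.5 h, a log2 change of 0.62 ± 0.12 (adjusted p = 0.0055). MCM6, a subunit of the replicative helicase, was at 7.29 and 7.50 FPKM at 6 h, against 5.34 and 3.98 FPKM at 1.5 h, a log2 change of 0.58 ± 0.16 (adjusted p = 0.027). The groups are separate in each, which the rule for naming genes required, and each difference is under 2-fold. Far fewer passed in several alternatives: 4 to 7 genes were called higher with 1 library left out, and 6 without a minimum level or without precision weights. CYCB1;1 and MCM6 each lost their call in 6 of 15 alternatives, and CDKB2;2 without replicate 2 of 1.5 h (adjusted p 0.058). WOX5, the stem cell niche regulator of the quiescent centre, fell to 4.51 and 3.23 FPKM at 6 h, against 11.6 and 7.87 FPKM at 1.5 h, a log2 change of -1.14 ± 0.25 (adjusted p = 0.0091), while the root cap factors SMB and BRN2 rose (log2 changes 0.66 and 0.75). The WOX5 call ended without replicate 2 of 6 h or replicate 1 of 1.5 h, and SMB and BRN2 were not both called in any fit that left out a library.

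Genes whose reference description names a ribosomal protein were mostly higher: 148 of 285 rose and 3 fell (median 0.27). The list was matched on descriptions, without genes of the organelle genomes or descriptions that name an organelle. It still holds some organellar types, such as HLL, a mitochondrial ribosomal protein. Called rises ran from 0.19 to 0.62 on the log2 scale, and summed FPKM was 70291 and 66639 at 6 h, against 55769 and 55440 at 1.5 h. The 3 largest rises were in HLL, rps15ab and AT1G68660. HLL was at 16.5 and 15.3 FPKM at 6 h, against 10.5 and 9.47 FPKM at 1.5 h, and rps15ab was at 17.1 and 18.24 FPKM at 6 h, against 11.9 and 10.9 FPKM at 1.5 h. AT1G68660, described as an L12 or ClpS family protein, was at 35.7 and 31.6 FPKM at 6 h, against 21.9 and 22.4 FPKM at 1.5 h. The HLL call ended without any 1 of the 4 libraries, without a minimum level and without precision weights (highest adjusted p 0.13), and that of rps15ab without replicate 2 of either group. In all, 26 to 90 were called higher with 1 library left out, the fewest without replicate 1 of 6 h. Without precision weights there were 97. Histone genes followed, with 21 of 45 higher and 1 lower (median 0.36; 13 to 17 higher with 1 library left out). AT2G37470 was at 92.2 and 90.7 FPKM at 6 h, against 55.3 and 50.0 FPKM at 1.5 h, a log2 change of 0.79 ± 0.07 (adjusted p = 3.2e-05), and AT3G46320, which shares 26.7% of its 50-base windows with other loci, at 67.0 and 64.1 FPKM at 6 h, against 40.5 and 30.2 FPKM at 1.5 h.

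Wall-loosening and wall-crosslinking enzymes separated. Expansins, which loosen walls during growth, were called higher in 9 of 21 genes and lower in 1 (median 0.33). EXPA15 was at 48.9 and 43.9 FPKM at 6 h, against 16.4 and 16.3 FPKM at 1.5 h, a log2 change of 1.45 ± 0.18 (adjusted p = 0.00029). EXPB3 was at 91.5 and 97.0 FPKM at 6 h, against 43.4 and 36.6 FPKM at 1.5 h, a log2 change of 1.22 ± 0.12 (adjusted p = 8.2e-05). EXLB1, the gene that fell, was at 31.8 and 33.8 FPKM at 6 h, against 52.5 and 67.9 FPKM at 1.5 h. Class III peroxidases, which crosslink wall polymers and make reactive oxygen, were called lower in 21 of 52 and higher in 3 (median -0.32). AT5G64100 was at 645 and 655 FPKM at 6 h, against 1999.7 and 2196 FPKM at 1.5 h, a log2 change of -1.69 ± 0.11 (adjusted p = 5.8e-06), and its neighbour AT5G64110 at 3.46 and 4.02 FPKM at 6 h, against 16.3 and 20.02 FPKM at 1.5 h, a log2 change of -2.01 ± 0.28 (adjusted p = 0.00068). Both peroxidases were at least 2-fold lower in each 6 h library. Xyloglucan endotransglucosylases, which cut and rejoin hemicellulose, went both ways, 3 higher and 4 lower of 22: XTH19 was at 52.9 and 55.8 FPKM at 6 h, against 29.2 and 23.59 FPKM at 1.5 h. XTH7 was at 21.1 and 16.2 FPKM at 6 h, against 55.6 and 51.0 FPKM at 1.5 h. When 1 library was left out, 12 to 19 peroxidases were called lower and 6 to 8 expansins higher. Of 9 primary wall cellulose genes 1 was called, CESA2, higher at a log2 change of 0.24, and not without replicate 1 of 1.5 h or either library of 6 h.

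Many glutathione transferases, which detoxify reactive compounds, fell. Of 49 glutathione transferases 19 fell and 5 rose (median -0.25). ERD9 was at 32.5 and 30.6 FPKM at 6 h, against 174 and 133 FPKM at 1.5 h, a log2 change of -2.23 ± 0.19 (adjusted p = 3.7e-05). GSTU22 was at 12.5 and 11.6 FPKM at 6 h, against 54.2 and 49.5 FPKM at 1.5 h, a log2 change of -2.02 ± 0.12 (adjusted p = 4.4e-06). GSTF2 was at 67.2 and 60.3 FPKM at 6 h, against 251 and 283 FPKM at 1.5 h, a log2 change of -2.05 ± 0.10 (adjusted p = 1.8e-06), with 60.5% of its exon bases opposite AT4G02510. Cytochrome P450 genes moved in both directions, 28 higher and 25 lower of 135 (median 0.0046, and the sign of the median differs between scalings), or 16 to 18 and 12 to 19 without 1 library. CYP72A15 was at 19.4 and 17.5 FPKM at 6 h, against 79.8 and 70.9 FPKM at 1.5 h. CYP71A27 was at 22.7 and 23.4 FPKM at 6 h, against 5.60 and 6.49 FPKM at 1.5 h. In the camalexin and indole glucosinolate list, CYP79B2 and CYP79B3, which catalyse the first step from tryptophan, were called higher. CYP79B2 was at 106 and 100.7 FPKM at 6 h, against 60.8 and 67.4 FPKM at 1.5 h. CYP79B3 was at 78.0 and 75.6 FPKM at 6 h, against 43.8 and 41.7 FPKM at 1.5 h. The log2 changes were 0.68 for CYP79B2 and 0.83 for CYP79B3, while the factor MYB122 was at 4.43 and 3.06 FPKM at 6 h, against 8.70 and 8.54 FPKM at 1.5 h (log2 change -1.04). The CYP79B2 call ended without replicate 1 of either group and without precision weights (highest adjusted p 0.075), and that of MYB122 without replicate 2 of 6 h (adjusted p 0.064). That list had 3 rises and 2 falls among 13 genes, or 1 to 2 and 0 to 2 without 1 library.

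Carbon status genes were mixed, with 5 higher and 6 lower of 22 energy starvation genes (median -0.11). DIN10, a dark-inducible raffinose synthase family protein, was at 174 and 206 FPKM at 6 h, against 76.1 and 61.8 FPKM at 1.5 h, a log2 change of 1.45 ± 0.16 (adjusted p = 0.00023). ERD5, proline dehydrogenase, was at 136 and 151 FPKM at 6 h, against 90.6 and 65.9 FPKM at 1.5 h. EXL2, of the EXORDIUM-like family, was at 122 and 126 FPKM at 6 h, against 300.1 and 289.5 FPKM at 1.5 h, a log2 change of -1.24 ± 0.09 (adjusted p = 7.8e-06). TPS11, a trehalose phosphate synthase-like protein, was at 7.36 and 7.77 FPKM at 6 h, against 18.7 and 13.03 FPKM at 1.5 h, a log2 change of -0.95 ± 0.18 (adjusted p = 0.0044). Without 1 library 2 to 3 were called higher and 3 to 4 lower, and without a minimum level 3 and 3.

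Among markers of root tissues several of the endodermis and the vascular tissue fell, and in bulk roots fewer cells of a type and less RNA per cell cannot be told apart. Of 12 endodermis genes 5 fell (median -0.33). PER64, the peroxidase that polymerises lignin in the Casparian strip, was at 60.9 and 59.4 FPKM at 6 h, against 80.8 and 83.8 FPKM at 1.5 h, a log2 change of -0.45 ± 0.07 (adjusted p = 0.0015). ESB1, a dirigent-like protein of the strip, was at 136 and 139 FPKM at 6 h, against 177 and 222 FPKM at 1.5 h, with 84.3% of its exon bases opposite AT2G28671. Of 10 xylem and phloem genes 5 fell (median -0.27). SUC2, the phloem sucrose loader, was at 17.9 and 14.6 FPKM at 6 h, against 32.6 and 33.8 FPKM at 1.5 h, a log2 change of -0.99 ± 0.11 (adjusted p = 0.00018). CESA8, of secondary walls, was at 9.68 and 9.83 FPKM at 6 h, against 13.7 and 13.5 FPKM at 1.5 h, a log2 change of -0.44 ± 0.06 (adjusted p = 0.00084). Without 1 library 3 to 7 endodermis genes, the most without replicate 1 of 1.5 h, and 3 to 4 vascular genes were called lower. Of 12 suberin genes 1 was called, KCS2 (log2 change -0.53), and not without replicate 1 of 6 h.

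Of 13 epidermal patterning genes 4 were called higher and none lower (median 0.41). GL2, the homeodomain factor of the non-hair fate, was at 8.93 and 9.66 FPKM at 6 h, against 5.60 and 6.61 FPKM at 1.5 h, a log2 change of 0.54 ± 0.09 (adjusted p = 0.0019). WER, the MYB factor that activates it, was at 13.4 and 13.4 FPKM at 6 h, against 9.02 and 7.26 FPKM at 1.5 h, a log2 change of 0.66 ± 0.15 (adjusted p = 0.0090). Their bHLH partners GL3 and EGL3 rose by 0.46 and 0.45, and ANL2, a relative of GL2, was at 11.503 and 10.6 FPKM at 6 h, against 10.4 and 11.51 FPKM at 1.5 h and was not called (log2 change 0.01, adjusted p = 0.94). WER was not called without replicate 2 of 1.5 h (adjusted p 0.086). From 1 to 3 of the list were called higher without 1 library, the fewest without replicate 2 of 1.5 h, and 2 in 5 of the other alternatives. The 23 root hair genes gave 3 rises and 3 falls (median -0.06, and its sign differs between scalings), and without 1 library 2 to 5 and 0 to 1. RSL2, a root hair growth factor, was at 29.8 and 33.7 FPKM at 6 h, against 15.6 and 14.3 FPKM at 1.5 h, a log2 change of 1.04 ± 0.09 (adjusted p = 3.7e-05). COW1 was at 47.3 and 50.4 FPKM at 6 h, against 32.6 and 32.9 FPKM at 1.5 h. LRL1 was at 31.9 and 24.8 FPKM at 6 h, against 39.4 and 47.0 FPKM at 1.5 h, a log2 change of -0.60 ± 0.12 (adjusted p = 0.0058), a call that ended without replicate 2 of either group. Of 19 aquaporins 4 rose and 4 fell, or 2 to 5 and 1 to 4 without 1 library, with TIP2;3, a tonoplast channel, at 71.0 and 64.2 FPKM at 6 h, against 28.03 and 29.3 FPKM at 1.5 h, a log2 change of 1.21 ± 0.13 (adjusted p = 0.00015). PIP2;3 was at 58.5 and 52.8 FPKM at 6 h, against 87.2 and 99.7 FPKM at 1.5 h, a log2 change of -0.74 ± 0.09 (adjusted p = 0.00023).

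The same interval in As(V)-treated roots gave another course for clock genes. For 21 of 32 clock-list genes tested the change in As(V) roots differed from that in mock roots, in a test over all genes in which 8637 of 18800 members (45.9%) differed. LUX was at 582 and 584 FPKM in As(V) roots at 6 h, against 90.2 and 95.5 FPKM at 1.5 h, and its change exceeded that in mock roots by 2.87 ± 0.12 on the log2 scale (adjusted p = 5.7e-08). GI was at 38.7 and 41.7 FPKM in As(V) roots at 6 h, against 17.8 and 19.2 FPKM at 1.5 h, a difference of 2.01 ± 0.11 (adjusted p = 1.8e-07), opposite in direction to its fall in mock roots. CCA1 was at 63.5 and 78.0 FPKM at 6 h in As(V) roots, against 23.9 and 21.9 FPKM at 1.5 h. For TOC1 and ZTL the sign of this difference turned with a fixed sum per library or with library totals.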

How the data were processed

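Poly(A) RNA of roots was sequenced as stranded single-end reads of 50 bases, per the labels' protocols. The values are FPKM as deposited by the authors for 33557 genes. The submitters' processing notes name Trim Galore, STAR 2.5.4, HTSeq 0.6.0, edgeR and TAIR10, with no role or order; the strand setting of the counting is not given in the sources used here. FPKM values are not counts, so they were tested on a log scale. Reads per gene were estimated from the steps between values (found in 44.0% of 23156 genes searched, within 0.05 reads) and used for a read minimum, for precision weights and, in 1 alternative, as the values tested. The estimate covers counting error only, and duplicate reads cannot be seen.

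The log2(FPKM + 1) values of all 12 libraries were fitted in limma 3.58.1 (R 4.3.3) with 1 term per group, voom weights and robust empirical Bayes, over 19755 genes with at least 1 FPKM and at least 10 estimated reads in 2 libraries. Of the members 372 fell under the read minimum or had no read estimate. Calls were made at a Benjamini-Hochberg adjusted p under 0.05, two-sided, with 6 residual degrees of freedom, and ± is the standard error. Genes were named by rule among those called, with no overlap between the 2 groups and a mean of at least 5 FPKM. These were the 8 with the largest changes each way and up to 3 per list with at least 3 calls. A fixed set of clock, phosphate and epidermis genes was named whatever the values. Other genes in the text were chosen after their values were seen. The members, the 40 lists and the rule were chosen with earlier results of these data known. Families were matched on reference descriptions. Gene names, coordinates, overlaps and promoters are from RefSeq's TAIR10.1, which names 32810 of the genes. The files hold no coordinates. Tables and figures were made with Python 3.11.15, pandas 2.3.3 and NumPy 2.4.6. The fitting step was tested on simulated data, and 15 alternatives were run. One gene that the rule named is not reported here.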

Additional observations from a re-analysis of the deposited data

Results flagged for a closer look

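For 21 of 32 clock-list genes the 6 h minus 1.5 h change differed between As(V) and mock roots in limma's test of that difference, and these are listed because 2 treatments gave unlike courses over the same hours. The values are log2 changes in As(V) roots minus those in mock roots. Among morning genes the difference was 2.71 for CCA1, 2.14 for RVE1, 2.13 for AT5G52660, 2.01 for PRR7, 1.91 for LNK4, 1.59 for LNK1, 1.52 for LNK2, 1.50 for RVE8 and 0.64 for RVE4. Among afternoon and evening genes it was 2.87 for LUX, 2.69 for PRR5, 2.01 for GI, 1.43 for ELF3, 0.38 for ZTL and 0.32 for TOC1, and it was negative at -0.61 for ELF4 and -1.71 for BOA. Among outputs it was 1.63 for CDF3, 1.25 for CDF2, 1.06 for COL2 and -0.30 for GRP8. RVE4, TOC1, ZTL, COL2 and GRP8 lost their call in at least 1 alternative, and the other 16 kept it in all that gave a value. The library size that the deposited FPKM were scaled to was 0.430 and 0.445 of the estimated reads in As(V) roots at 6 h and 0.616 and 0.631 at 1.5 h. In mock roots it was 0.99992 and 1.0047 at 6 h and 0.963 and 0.952 at 1.5 h. Its part in these differences was not tested beyond the scaling alternatives. Over all members 45.9% differed.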

How the results depend on the processing

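The main test called 1865 genes higher and 2286 lower at 6 h. No gene called there turned its direction in any of the 15 alternatives. In many of them it could not. No called gene had overlapping groups in FPKM, so leaving out a library or changing the pseudocount, weights or minimum level keeps the sign. A change of scaling could have turned it. Leaving out 1 of the 4 libraries left its group with a single library, which limma then assumes to vary like the other groups, and gave 837 to 1067 genes called higher and 1166 to 1767 called lower. Without precision weights 1170 were called higher. The labels number the libraries of each group 1 and 2. Deviations of same-numbered libraries correlated at -0.022 between mock at 1.5 h and 6 h, and at 0.11 between mock and As(V) at 24 h. Whether same-numbered libraries shared a culture or harvest is not given, and these correlations cannot decide it. With the replicate block 1878 genes were called higher and 2295 lower. Of the 124 called genes named by rule, 95 kept their call under all alternatives, 13 lost it only when a library was left out and 16 under others. For the As(V) minus mock difference of the 6 h minus 1.5 h change, 2 of the 21 clock genes called there changed sign with scaling: TOC1 was at -0.13 and ZTL at -0.065 with a fixed sum per library, and at -0.25 and -0.18 with voom on estimated reads. The cause was not tested. Depth limits short genes and genes at low levels, and calls such as that of RTFL7 rest on few reads.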
